A study of Mus musculus with 12 samples.

Results

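The genes described here are 38 genes of the lysosome and of the proton pump that acidifies it, the vacuolar ATPase (V-ATPase). They were chosen by symbol, by a rule that uses no measured value but was written with earlier results of these data known, from 23282 entries in the count files of mouse skin. Each of the 38 symbols was found once, and all 38 were among the 14163 genes tested. They comprise 8 cathepsins, 11 hydrolases and their activators, 5 proteins of the lysosomal membrane, 4 V0 subunits, 7 V1 subunits and 2 accessory subunits of the pump, and 1 transcription factor, Tfeb.

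The study asked how diet-induced obesity alters skin with atopic dermatitis (AD) like inflammation, and the comparison here was between AD mice and mice that were both obese and inflamed (HF + AD). All were male wild-type C57BL/6J mice, 5 weeks of age at the start. Both groups received 0.5% 2,4-dinitrochlorobenzene (DNCB), a hapten that provokes contact inflammation, on the back 3 times a week for 6 weeks. The 5 AD mice ate ordinary chow, while the 7 HF + AD mice ate a diet with 60% of its energy as fat for 10 weeks, of which 4 came before the first DNCB. Since every mouse received DNCB, the groups differed by label in diet alone, and skin without DNCB was not analysed here. RNA of the whole skin was sequenced from the 3′ end of the mRNA, with 1 library per mouse.

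Lysosomes are the acidic compartments in which cells digest proteins, lipids and sugar chains taken up from outside or delivered by autophagy. The V-ATPase pumps protons into them: its cytosolic V1 sector hydrolyses ATP, and its V0 sector in the membrane carries the protons across. Many of these genes are activated together by the transcription factor TFEB, which binds a palindromic sequence named the CLEAR element. In skin, lysosomal proteases take part in the turnover and cornification of keratinocytes, and in antigen processing by dendritic cells and macrophages.

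The CLEAR core is shown for the member genes because it is the sequence through which TFEB is known to act. Promoter windows from RefSeq (GRCm38.p6, 300 bases each, reaching past a start of transcription) were held for 33 of the 38 genes, with 1 window for most, 2 for Ctsa and Psap and 3 for Atp6v0c and Tfeb. A gene was counted when any of its windows held the letters, here and over all genes. The letters TCACGTGA, which read the same on both strands, were present in 6 of these 33 (18.2%), against 1.12% of the 27025 genes with a promoter and 2.07% of the 10653 of them that were tested here. The shorter core CACGTG, also the same on both strands and contained in TCACGTGA, was in 12 of 33 (36.4%), against 8.09% of all genes and 11.3% of those tested. A match is a description of the sequence and not a measured binding site. Both matches of Ctsa lay in its second window, chr2:164833523-164833822, which begins inside the gene (chr2:164832873-164841032, + strand), and its first window held none. The stretches printed for Ctsd, Mcoln1 and Atp6v1a also lay inside the genes as annotated in GENCODE M21. These genes span chr7:142375911-142388038, chr8:3500457-3515232 and chr16:44085402-44139705. The stretches of Gla and Atp6v0d1 lay before the annotated start. The 8 occurrences are printed 5′ to 3′ on the strand of the gene, with TCACGTGA in capitals and 10 bases on each side.
Ctsa, chr2:164833750-164833777, + strand: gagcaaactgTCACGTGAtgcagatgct
Ctsa, chr2:164833767-164833794, + strand: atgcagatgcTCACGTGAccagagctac
Ctsd, chr7:142387909-142387936, - strand: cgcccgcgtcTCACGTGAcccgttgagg
Gla, chrX:134601216-134601243, - strand: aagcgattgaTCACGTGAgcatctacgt
Gla, chrX:134601183-134601210, - strand: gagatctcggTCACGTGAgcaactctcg
Mcoln1, chr8:3500463-3500490, + strand: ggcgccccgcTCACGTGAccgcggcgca
Atp6v0d1, chr8:105566051-105566078, - strand: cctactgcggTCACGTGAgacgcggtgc
Atp6v1a, chr16:44139374-44139401, - strand: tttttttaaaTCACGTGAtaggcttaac

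Of these 6 genes, Ctsd rose in HF + AD skin, and the other 5 did not pass the test, with log2 fold changes from -0.38 for Ctsa to 0.40 for Atp6v0d1. Over the 12 genes with CACGTG the median log2 fold change was 0.15, with 9 above 0 and 1 that rose. Over the 21 genes whose window lacked these letters the median was 0.36, with 14 above 0, 1 that rose and 2 that fell. These medians are descriptions and were not tested against each other.

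Across the 38 genes, the lysosomal transcripts did not all move in 1 direction. Ctsd and Atp6v0a1 rose in HF + AD skin, Ctsz and Atp6ap2 fell, and the other 34 did not pass the test (edgeR's quasi-likelihood test, Benjamini-Hochberg adjusted p under 0.05 over all genes tested). The 4 genes called are 10.5% of the members, against a background of 9.2% among all genes tested. By direction, 2 of 38 rose against 4.43% of all genes, and 2 of 38 fell against 4.77%. An unadjusted p under 0.05 was reached by 17 members (44.7%), 12 higher and 5 lower, against 25.1% of all genes. In 4 members the values of the 2 groups did not overlap, where 5.46% of all genes had no overlap. The share of members called by the adjusted test was thus near that of all genes, and the share at the unadjusted level was above it. The genes tested include many with low counts. Among the 10814 genes with at least 10 counts in every mouse, 6.97% rose and 7.38% fell. In that fit 3 of 38 members rose and 2 fell, and the unadjusted share of all genes was not compared.

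**Figure D1:**
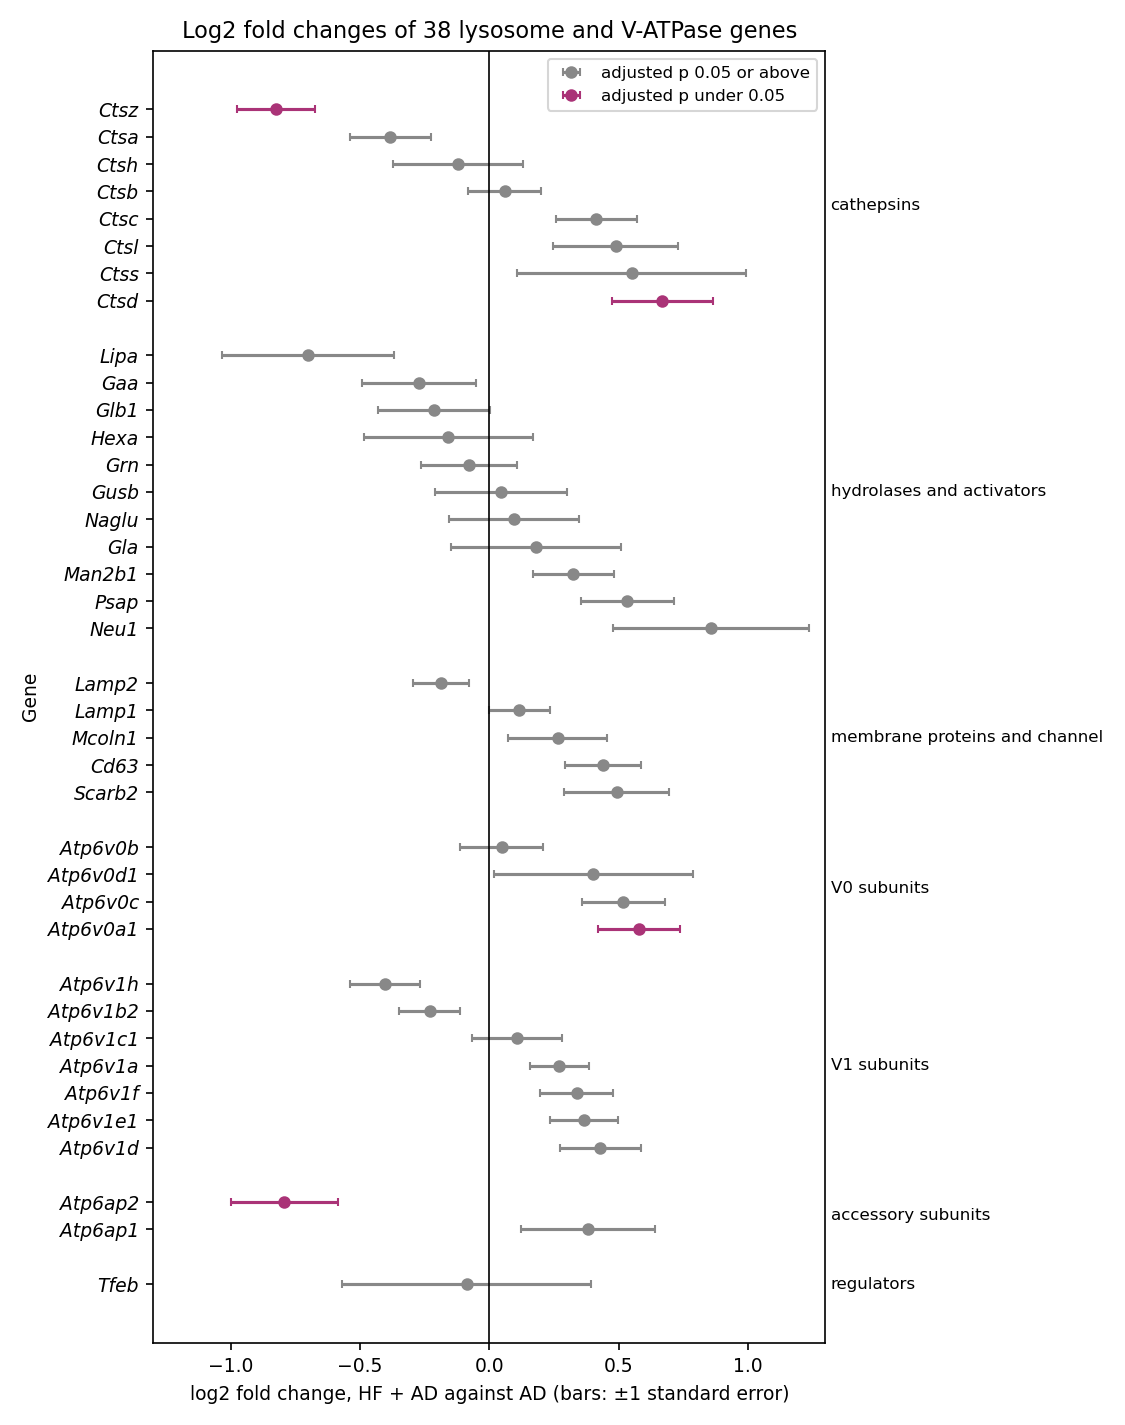
Log2 fold changes of HF + AD against AD skin for the 38 genes, grouped by role, with bars of 1 standard error on each side and the 4 genes past the adjusted threshold in purple. The fold changes run from -0.83 for Ctsz to 0.86 for Neu1, and 25 of 38 lie above 0.

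The direction leaned towards higher values in HF + AD skin. A log2 fold change above 0 was found for 25 of 38 members (65.8%), against 51.7% of all genes tested, and the median was 0.15, against 0.023 over all genes. The members' median minus that of all genes, 0.125, was 0.121 to 0.130 with DESeq2's size factors, library totals, DESeq2's Wald test or the GC correction. It narrowed to 0.024 with limma-trend, where the medians were 0.18 and 0.15, and to 0.039 with no filter on low counts. Leaving out AD mouse 3 gave 0.043, and leaving out AD mouse 5 gave 0.225. The GC correction lowered both medians, to 0.076 for the members and -0.046 for all genes. In CPM (counts scaled to a common library total, the totals adjusted by the trimmed mean of M values), the members summed to 5893 ± 570 in AD mice (SD, n = 5) and 6465 ± 640 in HF + AD mice (SD, n = 7). These sums ran from 5453 to 6766 and from 5934 to 7662, so the groups overlapped. As a share of all reads, the 38 genes took 0.538% to 0.638% in AD mice and 0.591% to 0.753% in HF + AD mice. In whole tissue, fewer cells of a type and less RNA per cell cannot be told apart.

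Single mice weighed on the values and calls of single genes. The lean itself was not lowered without HF + AD mouse 1. The members' median minus that of all genes was then 0.148, and 25 of 38 members lay above 0. HF + AD mouse 1 had the highest value of all 12 mice in 16 of the 38 genes, and the next in number, AD mouse 1, in 6. The lowest value of the 12 was in AD mouse 2 for 11 genes and in AD mouse 3 for 8. With HF + AD mouse 1 left out, the count of members that rose went from 2 to 0, and it was also 0 when either of AD mice 2 and 3 or any of HF + AD mice 2, 4 and 6 was left out. It was 1 when AD mouse 4 or HF + AD mouse 7 was left out. Leaving out AD mouse 1 gave 5, AD mouse 5 gave 4, and HF + AD mouse 5 gave 6. The share of all genes that rose moved in the same sense, from 4.43% with every mouse to between 2.2% and 3.35% in the fits with 0 members, and to between 4.93% and 5.38% in those with 4 to 6.

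The libraries held 9746937 to 13462434 counts. Between 13100 and 15063 genes had reads in AD mice and between 15522 and 16677 in HF + AD mice, so these ranges did not overlap, and the part of this in the results was not tested. A count of 0 allows up to 3 counts, which is 0.257 to 0.308 CPM in AD libraries and 0.223 to 0.280 CPM in HF + AD libraries. Skin markers were abundant in every library: the summed keratinocyte markers lay at 3308 to 5834 CPM in AD and 5815 to 10239 CPM in HF + AD mice. Of the 7 tested, 3 rose, the basal keratins Krt5, Krt14 and Krt15. The others did not pass, with log2 fold changes of 0.12 for Krt1, -0.42 for Krt10, -0.24 for Ivl and -0.29 for Lor. The median of the 7 was 0.12. Krt5 alone averaged 2860 CPM in AD and 5017 CPM in HF + AD skin, a large part of the sums. Among other markers, 3 of 9 genes of the hair shaft, 3 of 8 of the inner root sheath and 2 of 8 of endothelium rose, as did 1 of 5 of neutrophils (Mmp9), and 1 of 8 of skeletal muscle, 1 of 7 of sebocytes and 2 of 6 of pigment cells fell. Of the neutrophil markers, Mmp9, Cxcr2 and Mmp8 had log2 fold changes of 5.61, 2.02 and 1.34, and the median of the 5 was 1.34. Cxcr2 and Mmp8 did not pass (edgeR adjusted p = 0.106 and 0.554), nor did the abundant S100a8 and S100a9 (0.181 and 0.108). S100a8 averaged 580 CPM in AD and 201 CPM in HF + AD skin, and S100a9 363 and 122 CPM. AD mouse 1, at 2403 and 1292 CPM, alone lay above every HF + AD mouse. The other AD mice had 95.3 to 204 and 97.9 to 163 CPM, against HF + AD medians of 214 and 145 CPM. Of the markers of T cells, mast cells, adipocytes, fibroblasts and hyperproliferative epidermis, 0 passed in edgeR, with 1, 1, 0, 1 and 0 at an unadjusted p under 0.05. Their part in the lysosomal results was not tested.

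Cathepsins, the proteases of the lysosome, split by member. Of 8, 1 rose and 1 fell, and their log2 fold changes had a median of 0.24. Ctsd encodes cathepsin D, the main aspartic protease (chr7:142375911-142388038, - strand, GENCODE M21 on GRCm38, as for the genes below). Ctsd was at 404, 207, 317, 330.5 and 453 CPM in AD mice 1 to 5, and at 424 to 842 CPM with a median of 534 in HF + AD mice. In words, 5 of the 7 HF + AD mice lay above every AD mouse, and HF + AD mouse 1 lay far above the rest. The means were 342 ± 93.5 and 544 ± 141 CPM (SD), a 1.59-fold difference. The log2 fold change was 0.67 with a standard error of 0.20 (edgeR, adjusted p = 0.0405). Its exons overlap those of Gm49369, an annotated gene on the same strand, so that the assignment of reads between them is uncertain. In 10 of 21 alternatives the call was lost, and 8 of these left out 1 mouse. Leaving out HF + AD mouse 1 gave a log2 fold change of 0.53 (edgeR adjusted p = 0.0804), and leaving out AD mouse 2 gave 0.54 (adjusted p = 0.0907). For Ctsd the others were AD mice 3 and 4 and HF + AD mice 2, 4, 6 and 7, each with an adjusted p of 0.0508 to 0.0852. A correction of each library for the GC content of transcripts lowered the Ctsd log2 fold change to 0.42 (adjusted p = 0.116).

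Ctsz encodes cathepsin Z, also named cathepsin X, a carboxypeptidase (chr2:174427493-174439039, - strand). Ctsz stood at 141, 107, 89.5, 98.5 and 119 CPM in the AD mice, and at 49.1 to 80.4 CPM with a median of 61.5 in the HF + AD mice. Every HF + AD mouse was below every AD mouse. The mean was 111 ± 19.8 CPM in AD and 62.5 ± 9.93 CPM in HF + AD skin, a ratio of 0.564. Its log2 fold change of -0.83 (standard error 0.15) had the smallest adjusted p of the members (edgeR, adjusted p = 0.00662), and the exact permutation test over the 792 splits of the mice gave p = 0.00126, the smallest it can give. The call was kept when any 1 mouse was left out. The exons of Ctsz overlap those of Nelfcd, a subunit gene of the negative elongation factor on the other strand, and whether counting used the strand is not given in the sources used here. Nelfcd itself fell from 113 ± 13.55 to 47.9 ± 16.6 CPM (log2 fold change -1.23, edgeR adjusted p = 0.00631), and without strand the reads of the 2 genes cannot be told apart.

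The promoters of these cathepsins, which moved in opposite directions, are shown to compare their content of the E-box core. Each is 300 bases from RefSeq (GRCm38.p6), printed 5′ to 3′ on the strand of the gene, with CACGTG in capitals. That of Ctsd held CACGTG from base 6 and from base 153 of the window, and in the window of Ctsz these letters did not occur, which says nothing about other sequences. The windows of Atp6v0a1, which rose, and of Atp6ap2, which fell, also lacked these letters. A link between the letters and the direction was not tested.
Ctsd, chr7:142387778-142388077, - strand: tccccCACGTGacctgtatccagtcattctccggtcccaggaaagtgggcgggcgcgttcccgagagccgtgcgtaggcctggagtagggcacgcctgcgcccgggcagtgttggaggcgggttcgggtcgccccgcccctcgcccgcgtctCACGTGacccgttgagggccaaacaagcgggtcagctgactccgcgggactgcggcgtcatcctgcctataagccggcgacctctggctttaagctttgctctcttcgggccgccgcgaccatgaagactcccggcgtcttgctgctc
Ctsz, chr2:174438990-174439289, - strand: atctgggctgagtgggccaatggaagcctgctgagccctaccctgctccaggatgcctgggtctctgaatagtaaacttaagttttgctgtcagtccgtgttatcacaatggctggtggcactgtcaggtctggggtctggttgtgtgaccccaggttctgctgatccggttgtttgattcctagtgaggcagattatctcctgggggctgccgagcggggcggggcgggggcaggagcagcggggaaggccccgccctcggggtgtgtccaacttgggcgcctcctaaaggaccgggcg

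The ratio of Ctsz to Ctsd counts within each library, chosen after the values were seen, was 0.262 to 0.517 in AD mice (median 0.298) and 0.0700 to 0.145 in HF + AD mice (median 0.118). It did not overlap between the groups, and, being a ratio of counts in 1 library, it does not depend on the scaling.

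The other 6 cathepsins did not pass the test. Ctsc encodes cathepsin C, which activates the serine proteases of mast cell and neutrophil granules, and had 192 ± 51.9 CPM in AD and 256 ± 35 CPM in HF + AD skin (log2 fold change 0.41, edgeR adjusted p = 0.106). In AD mice it was at 283, 188, 163, 162 and 163 CPM, so that mouse 1 alone lay within the HF + AD range of 219 to 320 CPM. Ctsa, the carboxypeptidase that stabilises neuraminidase and beta-galactosidase, had a log2 fold change of -0.38 (edgeR adjusted p = 0.132), with 3 of 7 HF + AD mice below every AD mouse, and with the GC correction it was called lower (-0.53, adjusted p = 0.0411). Exons of Ctsa overlap those of Pltp, the phospholipid transfer protein, on the other strand. Pltp was at 145 ± 37.2 CPM in AD and 108 ± 25.6 CPM in HF + AD skin (log2 fold change -0.43, edgeR adjusted p = 0.153), and without strand the reads of these genes cannot be told apart.

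Ctsl and Ctss encode cysteine proteases, the latter used by antigen-presenting cells to process the invariant chain. Ctsl averaged 253 ± 81.3 and 355 ± 135 CPM (log2 fold change 0.49, edgeR adjusted p = 0.22), with 3 HF + AD mice above the highest AD mouse. Ctss ranged from 11.7 to 59.6 CPM in AD and from 13.2 to 71.0 CPM in HF + AD mice, a wide spread within either group (log2 fold change 0.55, standard error 0.44). Ctsb, an abundant cysteine protease, was at 643 ± 48.6 and 669 ± 132 CPM, and Ctsh, an aminopeptidase, at 130.4 ± 55.4 and 120.0 ± 40.2 CPM.

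Markers of macrophages and dendritic cells, which are rich in lysosomes, are given beside these values. Of 12 such markers, 11 had a log2 fold change above 0 and 5 an unadjusted p under 0.05, against 51.7% and 25.1% of all genes. Their median was 1.05, while 0 passed the adjusted threshold in edgeR, which 9.2% of all genes did. Their summed level was 49.9 to 211 CPM in AD and 97.4 to 352 CPM in HF + AD mice. The more abundant of them had higher means in HF + AD skin, with C1qa at 26.4 and 55.0 CPM, C1qb at 25.0 and 34.2 CPM, Mrc1 at 11.4 and 28.0 CPM, Aif1 at 8.47 and 19.9 CPM and Csf1r at 7.25 and 14.9 CPM. Adgre1, at 3.45 and 3.18 CPM, was the 1 marker with a log2 fold change below 0. Single AD mice weighed on these AD means. AD mouse 1 had 8.43 CPM of Adgre1, against 0.61 to 4.55 CPM in the other AD mice. It also had 70.5 CPM of C1qa, against 6.86 to 19.3 CPM, and 57.6 CPM of C1qb, against 11.0 to 22.8 CPM. For Csf1r it was at 24.2 CPM, against 0.93 to 7.42 CPM. For Aif1, AD mouse 2 was at 22.7 CPM, against 3.07 to 6.89 CPM in the other AD mice. Lyz2 averaged 1.71 and 3.06 CPM, and Lyz2, Cd68, Itgax, Cd14 and Cd163 were at 0 in at least 1 AD mouse. The part of these cells in the cathepsin values was not tested.

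None of the 11 hydrolases and activators passed the adjusted test in edgeR. An unadjusted p under 0.05 was reached by 3, Neu1 and Psap on the higher side and Lipa on the lower side, against 25.1% of all genes. The group's median log2 fold change was 0.045. Man2b1, the lysosomal alpha-mannosidase of glycoprotein breakdown (chr8:85083270-85098282, + strand), had 31.1, 25.8, 35.5, 35.4 and 36.5 CPM in the AD mice and 37.6 to 46.0 CPM, median 39.2, in the HF + AD mice. The 7 HF + AD mice thus all lay above the AD mice, by a narrow margin. The exact permutation test on log2(CPM + 1) gave p = 0.00126, while the edgeR fit gave an unadjusted p of 0.0531 and an adjusted p of 0.207 for a log2 fold change of 0.32.

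Neu1, the lysosomal sialidase (chr17:34931253-34935953, + strand), showed the highest log2 fold change of the members, 0.86, with a standard error of 0.38 (edgeR, adjusted p = 0.167). It was low throughout, at 10.6, 1.86, 6.56, 11.8 and 10.7 CPM in AD mice and 8.33 to 19.7 CPM, median 15.5, in HF + AD mice. Of the HF + AD mice, 6 of 7 lay above the highest AD mouse. Psap encodes prosaposin, the precursor of the saposins that present sphingolipids to their hydrolases (chr10:60277627-60302597, + strand). Its AD values were 460.5, 290.2, 284, 287 and 272 CPM, against 305 to 635 CPM with a median of 438 in HF + AD mice. The log2 fold change was 0.53 (edgeR, adjusted p = 0.0743), and only AD mouse 1 lay within the range of the other group.

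Lipa, the acid lipase that releases cholesterol and fatty acids from lipoproteins and lipid droplets (chr19:34492318-34527474, - strand), had a log2 fold change below 0 and did not pass the test. It had 26.2, 9.93, 14.0, 9.81 and 11.4 CPM in AD mice and 6.01 to 12.8 CPM, median 8.64, in HF + AD mice. AD mice 1 and 3 lay above every HF + AD mouse, and the other 3 AD mice lay within the HF + AD range. Of the 7 HF + AD mice, 5 lay below every AD mouse. The log2 fold change was -0.70 with a standard error of 0.33 (edgeR, adjusted p = 0.199).

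The remaining 7 hydrolases and activators had log2 fold changes between -0.27 for Gaa, the acid alpha-glucosidase that digests glycogen, and 0.18 for Gla, the alpha-galactosidase. The beta-galactosidase Glb1 averaged 23.1 ± 5.34 CPM in AD and 19.9 ± 3.64 CPM in HF + AD skin, and the beta-hexosaminidase subunit Hexa 23.0 ± 13.7 and 20.6 ± 5.37 CPM. Gusb, the beta-glucuronidase, stood at 20.3 ± 6.81 and 20.9 ± 4.32 CPM, and Naglu, which cleaves heparan sulphate, at 18.3 ± 3.62 and 19.5 ± 6.04 CPM. Grn encodes progranulin, the precursor of granulins that act in the lysosome, and had 166 ± 41.4 and 157 ± 36.7 CPM. None of these 7 had an unadjusted p under 0.05.

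Of the 5 membrane genes, 4 had a log2 fold change above 0 and none passed the adjusted test in edgeR, while 2 had an unadjusted p under 0.05. Over all genes, 51.7% lay above 0 and 25.1% had an unadjusted p under 0.05. Cd63 encodes a tetraspanin of late endosomes and lysosomes (chr10:128900989-128912822, + strand). It was at 176, 159, 126, 153 and 138 CPM in AD mice and 155 to 267 CPM, median 215, in HF + AD mice, of which 5 of 7 exceeded every AD mouse (log2 fold change 0.44, adjusted p = 0.0724). Scarb2, the receptor that carries beta-glucocerebrosidase to the lysosome, was at 27.4 ± 7.79 and 38.6 ± 7.48 CPM (log2 fold change 0.49, adjusted p = 0.135).

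Lamp1 and Lamp2, the main glycoproteins that coat the inner face of the lysosomal membrane, differed in sign. Lamp1 averaged 447 ± 54.3 and 484 ± 48.9 CPM (log2 fold change 0.12), and Lamp2 averaged 563 ± 47.3 and 495 ± 40.4 CPM (-0.19), with 5 of 7 HF + AD mice below every AD mouse for Lamp2. Neither passed the edgeR test (adjusted p = 0.594 and 0.301). Mcoln1, the calcium channel TRPML1, had 28.2 ± 6.99 and 33.9 ± 4.15 CPM (adjusted p = 0.428).

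**Figure D2:**
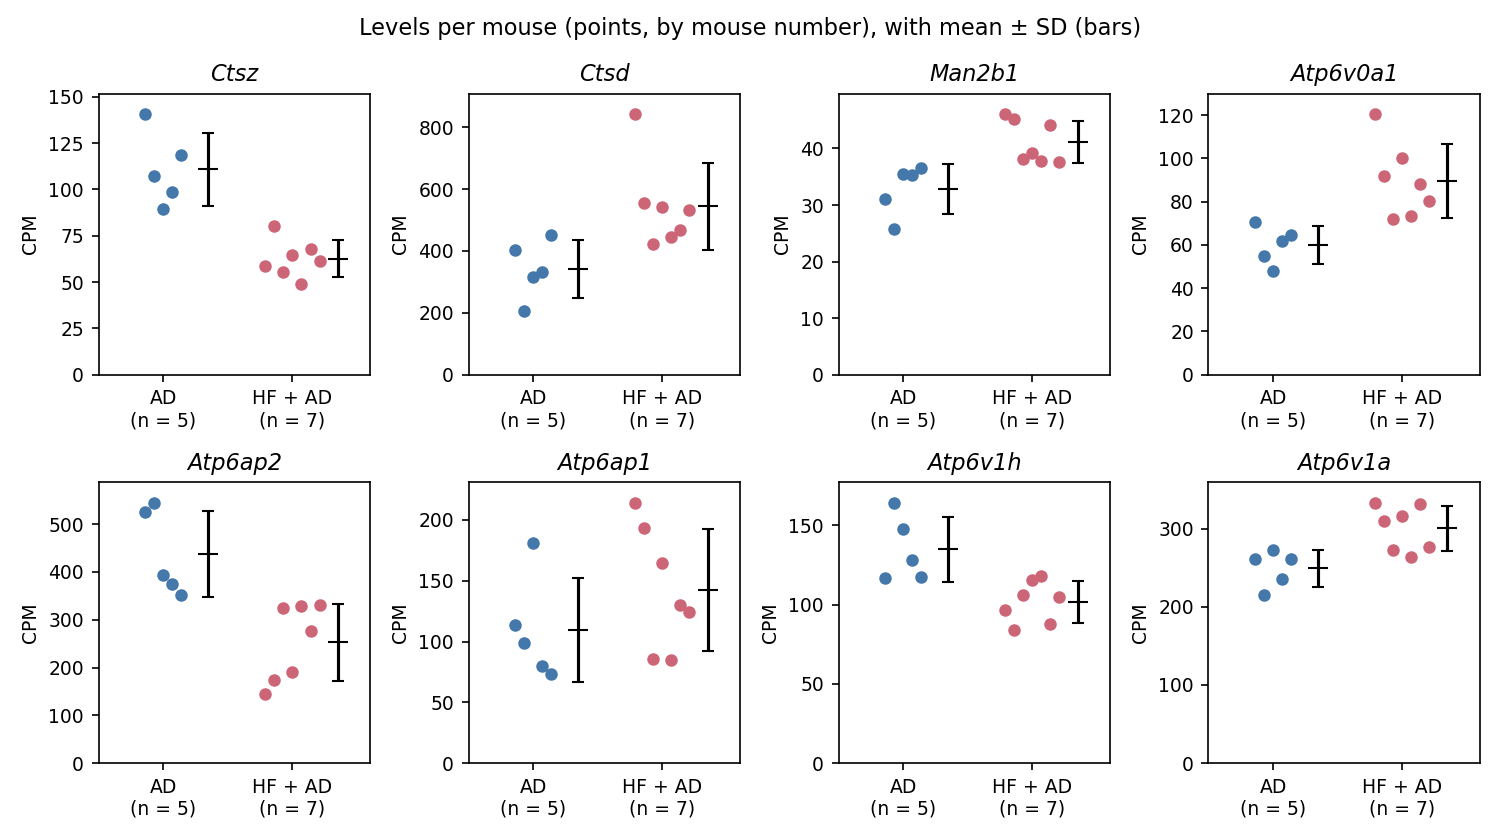
Level in each mouse, in CPM with the axis from 0, for the 4 genes past the threshold and 4 shown for comparison, with bars of mean ± SD for AD (n = 5) and HF + AD (n = 7). Ctsz and Atp6ap2 are lower in all 7 HF + AD mice than in any AD mouse, and Man2b1 and Atp6v0a1 higher in all 7.

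For the proton pump, all 4 V0 genes had a log2 fold change above 0, with a median of 0.46, and 1 of them rose. Over all genes tested, 51.7% lay above 0 and 4.43% rose. Atp6v0a1 encodes an a subunit, through which protons enter and leave the membrane sector (chr11:101009452-101063719, + strand). It stood at 70.4, 54.7, 47.9, 61.9 and 64.6 CPM in AD mice and 72.0 to 120.4 CPM, median 88.2, in HF + AD mice. The groups did not overlap, although the lowest HF + AD mouse and the highest AD mouse were close. The means were 59.9 ± 8.76 and 89.5 ± 17 CPM, a 1.49-fold difference, with a log2 fold change of 0.58 and a standard error of 0.16 (edgeR, adjusted p = 0.0311). For Atp6v0a1, 8 of 21 alternatives lost the call: 6 of them left out 1 of AD mice 2 and 3 and HF + AD mice 1, 2, 4 and 6, with adjusted p from 0.0509 to 0.0692, and the GC correction gave a log2 fold change of 0.43 (edgeR adjusted p = 0.0781).

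Atp6v0c encodes the c subunit of the rotating ring (chr17:24163866-24169702, - strand) and narrowly missed the threshold. It was at 122, 108, 121, 109 and 144 CPM in AD mice and 132 to 259 CPM, median 160.1, in HF + AD mice, with 5 of 7 above every AD mouse (log2 fold change 0.52, standard error 0.16, edgeR adjusted p = 0.0534). It passed in 7 of 21 alternatives. Atp6v0b, another ring subunit, was at 117 ± 36 and 121 ± 11.7 CPM. Atp6v0d1, which couples the ring to the central stalk, was at 13.9, 2.38, 21.3, 24.1 and 31.9 CPM in AD mice and 20.8 to 30.4 CPM in HF + AD mice, and its AD values enclosed all of the HF + AD values (log2 fold change 0.40, adjusted p = 0.567). Together the V0 genes summed to 275 to 420 CPM in AD and 348 to 537 CPM in HF + AD mice.

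None of the 7 V1 genes passed the adjusted test in edgeR, while 5 had an unadjusted p under 0.05, 4 higher and 1 lower. Of all genes tested, 25.1% had an unadjusted p under 0.05. Atp6v1a, the catalytic A subunit that binds ATP (chr16:44085402-44139705, - strand), had 261, 215, 272, 235 and 261 CPM in AD mice and 264 to 333 CPM, median 310, in HF + AD mice. The groups met at AD mouse 3, and 6 of 7 HF + AD mice were above every AD mouse (log2 fold change 0.27, standard error 0.11, adjusted p = 0.148). The stalk subunits Atp6v1d, Atp6v1e1 and Atp6v1f had log2 fold changes of 0.43, 0.36 and 0.34 (adjusted p = 0.0977, 0.0926 and 0.141), with 5, 6 and 5 of the 7 HF + AD mice above every AD mouse. Atp6v1c1, which controls assembly of the sectors, had 49.2 ± 11 and 53.1 ± 9.05 CPM.

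The V1 genes with negative values were Atp6v1h and Atp6v1b2. Atp6v1h encodes the H subunit, which blocks ATP hydrolysis when V1 is detached (chr1:5070018-5162529, + strand). It was at 117, 164, 147, 128 and 117 CPM in AD mice and 83.7 to 118 CPM, median 105, in HF + AD mice, so that 6 of 7 lay below every AD mouse (log2 fold change -0.41, standard error 0.14, edgeR adjusted p = 0.0688). Its exons overlap those of Rgs20 on the other strand, a gene at 0 to 14.9 CPM in these libraries. Atp6v1b2 encodes the B2 subunit, the partner of A in the catalytic ring, and had 275 ± 42.8 and 235 ± 15.8 CPM (-0.23, adjusted p = 0.236).

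A and B subunits alternate in equal number in the ring, and the ratio of their counts was therefore read within each library, though a ratio of counts is not one of molecules. The ratio of Atp6v1b2 to Atp6v1a was 0.928 to 1.31 in AD mice (median 1.07) and 0.690 to 0.882 in HF + AD mice (median 0.784), with no overlap. That of Atp6v1h to Atp6v1a was 0.448 to 0.763 in AD mice (median 0.542) and 0.265 to 0.449 in HF + AD mice (median 0.366), of which 6 of 7 lay below every AD mouse. Both ratios were chosen after the values were seen and are given without a test.

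Of the 2 accessory subunits, 1 fell and the other did not pass the test. Atp6ap2, the prorenin receptor, which helps to assemble V0 and also serves Wnt signalling (chrX:12587801-12617049, + strand), fell. Its AD values were 526, 544, 393, 374 and 351 CPM, against 145 to 330.1 CPM with a median of 276 in HF + AD mice, and the groups did not overlap. Within the HF + AD group, mice 1, 2 and 4 were at 145, 174 and 191 CPM and the others at 276 or above. The means were 438 ± 90.6 and 253 ± 80.6 CPM, a ratio of 0.577, with a log2 fold change of -0.79 and a standard error of 0.21 (edgeR, adjusted p = 0.0264). Leaving out AD mouse 2 lost the call (edgeR adjusted p = 0.0706), as did leaving out HF + AD mouse 2 (0.058) or HF + AD mouse 4 (0.0544).

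Atp6ap1, the other accessory subunit, was at 114, 98.7, 181, 80.2 and 73.2 CPM in AD mice and 84.5 to 214 CPM, median 129.9, in HF + AD mice (log2 fold change 0.38, adjusted p = 0.39). HF + AD mice 1, 2 and 4, which had the lowest Atp6ap2, had the highest Atp6ap1 of their group, at 214, 193 and 165 CPM. The ratio of Atp6ap2 to Atp6ap1 was 2.17 to 5.52 in AD mice and 0.679 to 3.89 in HF + AD mice, with 4 of 7 below every AD mouse.

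Tfeb, the regulator, was barely expressed at 5.33 ± 2.12 CPM in AD and 5.02 ± 2.39 CPM in HF + AD skin (log2 fold change -0.09, standard error 0.48, edgeR adjusted p = 0.939). The standard error was larger than the fold change. Its lowest and its highest value of the 12 mice, 1.74 and 9.22 CPM, were both in HF + AD mice.

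**Figure D3:**
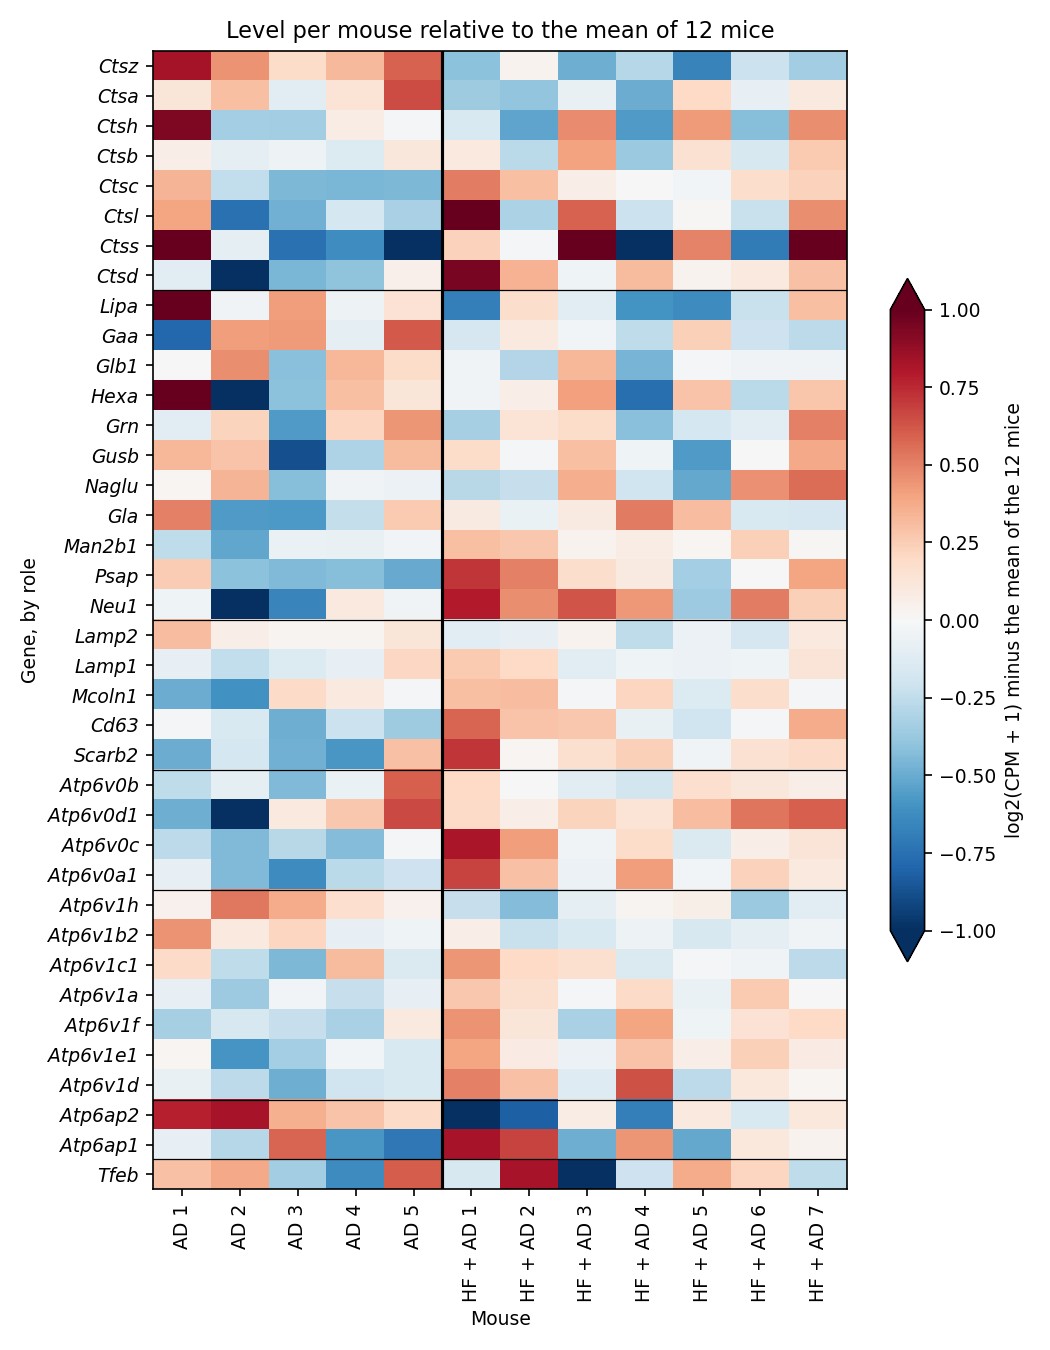
Level of each gene in each mouse as log2(CPM + 1) minus the mean of the 12 mice, with genes by role and mice by group and number, and colours that end at 1 on either side (14 of 456 values lie beyond). HF + AD mouse 1 is highest in 16 of the 38 genes, and Ctsz and Atp6ap2 are higher in the AD columns.

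Spread between mice was compared as a description. The SD of log2(CPM + 1) was larger in the AD than in the HF + AD group for 23 of 38 members (60.5%), and for 78.6% of all genes tested. The median SD of the members was 0.33 in AD and 0.26 in HF + AD mice, below the medians of 0.53 and 0.33 over all genes.

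Other genes of the same pathways were read from 7 lists of 111 genes, of which 102 were tested: other V-ATPase subunits, other cathepsins and their inhibitors, other hydrolases, other membrane and transport proteins, sorting to the lysosome, the TFEB family with the Ragulator complex, and autophagy. Of the 102, 5 rose and 3 fell (7.84%, where the background is 9.2%). An unadjusted p under 0.05 was reached by 32 (31.4%), against 25.1% of all genes. The median log2 fold change was 0.037, against 0.023 over all genes. By list, 1 of 9 other V-ATPase subunits, 1 of 8 cathepsins and inhibitors and 2 of 26 hydrolases rose. Of 13 sorting genes 1 fell, of 13 genes of the TFEB family and Ragulator 1 rose and 1 fell, of 16 autophagy genes 1 fell, and of 17 membrane genes 0 passed in edgeR, with 4 at an unadjusted p under 0.05.

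Rraga, a Rag GTPase that recruits mTORC1 to the lysosome, had the lowest log2 fold change of the 8 genes past the threshold. It was at 179, 199, 177, 142 and 188 CPM in AD mice and 36.0 to 114 CPM, median 79.8, in HF + AD mice, with no overlap (log2 fold change -1.11, standard error 0.21, edgeR adjusted p = 0.00679). Rraga kept its call in 21 of 21 alternatives. Lamtor4, a subunit of the Ragulator that anchors the Rag GTPases, rose, with 32.3, 28.2, 40.5, 37.8 and 35.4 CPM in AD mice and 46.7 to 87.1 CPM, median 65.7, in HF + AD mice (0.89, standard error 0.18, adjusted p = 0.00928).

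Fuca1, the lysosomal fucosidase, rose from 54.9 ± 14 to 95.0 ± 9.89 CPM (0.79, edgeR adjusted p = 0.00982), and Tpp1, a tripeptidyl peptidase, from 107 ± 11.9 to 158 ± 23.2 CPM (0.57, adjusted p = 0.0165). In both, all 7 HF + AD mice lay above every AD mouse. Atp6v1c2, the C2 isoform of the pump's C subunit, rose from 17.5 ± 4.44 to 34.8 ± 13 CPM (0.99, adjusted p = 0.0268), also without overlap. Cst6, cystatin M/E, an inhibitor of cathepsin L and legumain in the epidermis, rose from 188 ± 90.0 to 381 ± 122 CPM (1.02, adjusted p = 0.031), with overlap between the groups.

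Gnptab, the phosphotransferase that starts the mannose 6-phosphate tag of lysosomal enzymes, fell from 109 ± 27.1 to 69.3 ± 6.8 CPM (log2 fold change -0.65, edgeR adjusted p = 0.0173). Atg3, the enzyme that passes LC3 to its lipid, fell from 66.6 ± 22.6 to 40.6 ± 6.82 CPM (-0.71, adjusted p = 0.0309), with all HF + AD mice below every AD mouse. Of these genes, Cst6, Atp6v1c2 and Atg3 lost the call when HF + AD mouse 1 was left out (edgeR adjusted p = 0.0675, 0.0612 and 0.065) and when AD mouse 2 was left out (0.0731, 0.06 and 0.0922). The same held for AD mice 3 and 4 and HF + AD mice 6 and 7 in Cst6, for AD mouse 4 and HF + AD mouse 2 in Atp6v1c2, and for HF + AD mice 2 and 4 in Atg3, with adjusted p from 0.0546 to 0.0774.

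**Figure D4:**
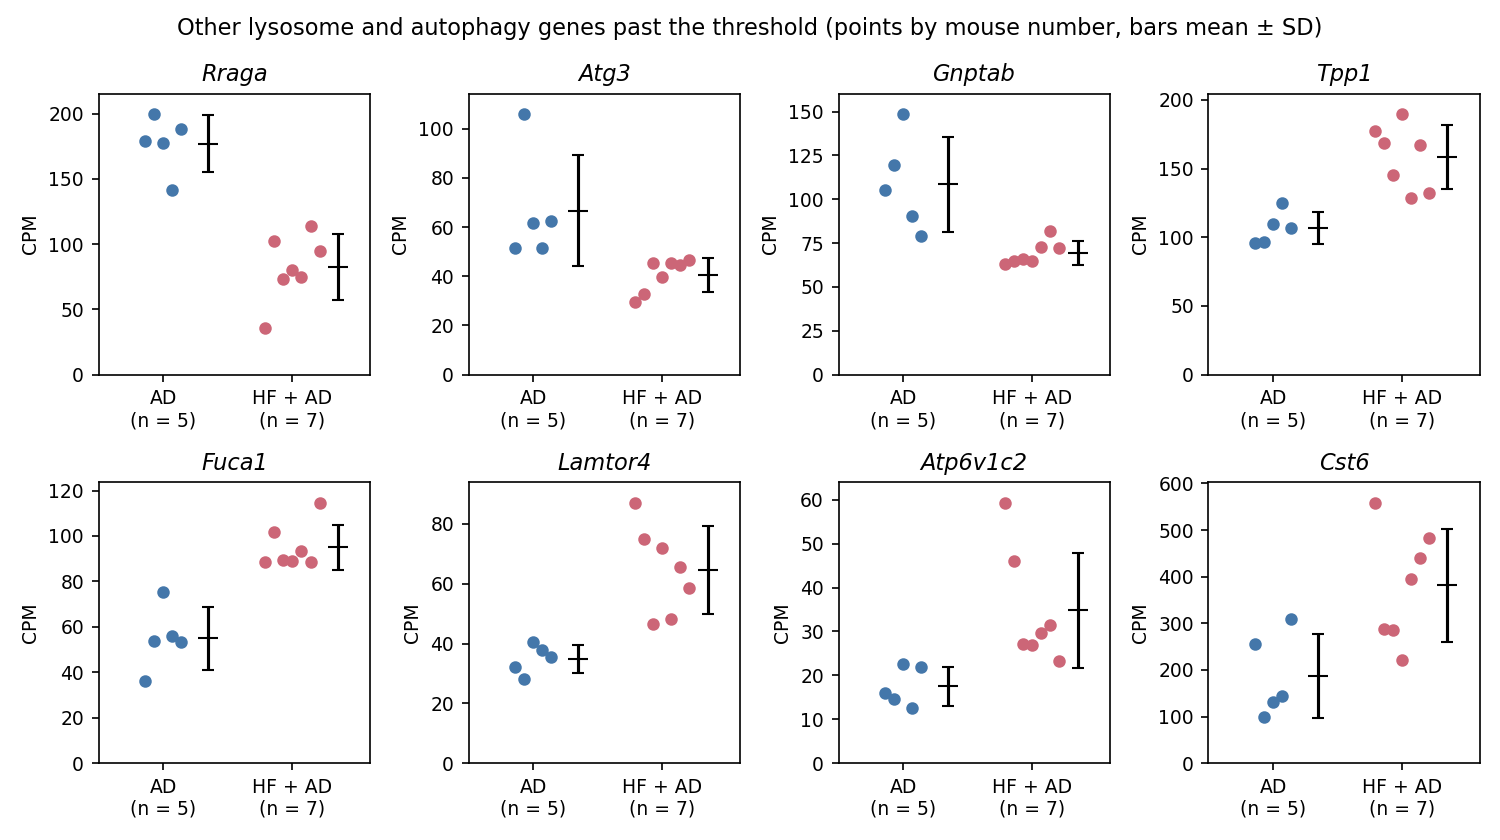
Level in each mouse, in CPM with the axis from 0, for the 8 genes past the threshold among 102 other lysosome and autophagy genes tested, with bars of mean ± SD for AD (n = 5) and HF + AD (n = 7). Rraga, Atg3 and Gnptab are lower in HF + AD skin and the other 5 higher, with overlap between the groups in Gnptab and Cst6.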

How the data were processed

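Libraries from the skin of 5 AD mice and 7 HF + AD mice were sequenced from the 3′ end of mRNA. The values deposited by the authors are unnormalized counts of reads for each symbol, in 1 file per mouse. Per the submitters' processing notes, Bowtie2, bedtools and mm10 were used, without versions; use of strand and removal of duplicates are not given in the sources used here. The labels number the mice but give no batch. Of 23282 entries, 4677 had no reads and 35 symbols were listed more than once, none of them a member. Totals were 9746937 to 13462434 counts; limits cover counting error only.

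HF + AD was compared with AD in edgeR 4.0.16 (R 4.3.3; TMM, filterByExpr, quasi-likelihood test, Benjamini-Hochberg adjustment over 14163 genes, threshold 0.05). Standard errors were derived from the log2 fold change and its F statistic. For single genes an exact two-sided permutation test was also run on log2(CPM + 1) over 792 splits. Alternatives used DESeq2 1.42.0 size factors or Wald test, library totals, no filter, at least 10 counts in every mouse, limma-trend (limma 3.58.1), a term for the replicate number, a robust prior, omission of each mouse in turn, and, added after the data were seen, a GC correction in 20 bins. The steps were tested on simulated data. Positions and GC content came from GENCODE M21 and promoters from RefSeq, and tables were joined in Python 3.11.15 with pandas 2.3.3, NumPy 2.4.6 and matplotlib 3.10.9.

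The members, the 7 lists of related genes, the 14 marker lists and the tests were chosen with earlier results of these data known. Genes named were the members and those of the 7 lists with an adjusted p under 0.05; marker genes, Nelfcd and the ratios were added after their values were seen. In GENCODE, exons of 12 members overlap exons of another gene, on the same strand for 3 and on the opposite strand for 10.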

Additional observations from a re-analysis of the deposited data

Results flagged for a closer look

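A single mouse far from the others of its group stood out in 6 of 92 groups of values examined for 46 genes, where chance gives about 1 in 20. In AD mouse 1, Ctsc was at 283 CPM, with the nearest AD mouse at 188 CPM. Psap in the same mouse was at 460.5 CPM, and the nearest AD mouse was at 290.2 CPM. In HF + AD mouse 1, Ctsd reached 842 CPM, against 554 CPM in the nearest mouse of its group. Scarb2 in this mouse was at 54.7 CPM, with the nearest at 38.9 CPM. Rraga was lowest in this mouse, at 35.96 CPM, and the nearest HF + AD mouse was at 73.3 CPM. Atg3 in AD mouse 2 was at 106 CPM, with the nearest AD mouse at 62.4 CPM. Of the 6 values, 3 were in HF + AD mouse 1, and the cause was not tested.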

How the results depend on the processing

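Of the 38 members, 30 kept the sign of their log2 fold change in all 21 alternatives and 8 did not. Against 2 members called higher, library totals and the DESeq2 Wald test gave 5 each, the GC correction 0 (15 of either direction at an unadjusted p under 0.05), and leaving out single mice 0 to 6. Calls higher over all genes moved too, from 4.43% to 5.25%, 6.67%, 3.33% and 2.2% to 5.38%, in that order. Against 2 called lower, the GC correction and the DESeq2 Wald test gave 3 each (6.14% and 7.07% of all genes, from 4.77%), and leaving out mice 1 to 2 (2.37% to 5.46%). The 4 members without overlap became 4 to 7 with single mice left out, while the share of all genes without overlap went from 5.46% to between 5.57% and 8.61%. Among the related genes, 8 in all, the DESeq2 Wald test called 21, limma-trend 15, and leaving out mice gave 5 to 14, while calls over all genes went from 9.2% to 13.7%, 11.0% and 4.57% to 10.4%. With a replicate block, no member was called higher (0) or lower (0) in edgeR, 12 had an unadjusted p under 0.05, 1.36% of all genes were called, 2 related genes were called, and Naglu changed sign to -0.15. Same-numbered mice of the groups had correlations of -0.082 to 0.039, and 0 of 5 matched their own number best. No pairing by number was thus seen in these 5 correlations. The labels give no batch, and a batch shared by some of the mice was not tested. The GC correction turned Gusb to -0.052, Naglu to -0.12 and Atp6v0b to -0.12. Leaving out single mice moved log2 fold changes across 0 for Ctsb (-0.016 to 0.12), Ctsh (-0.22 to 0.18), Gusb (-0.12 to 0.15), Hexa (-0.36 to 0.23), Naglu (-0.014 to 0.20), Grn (-0.21 to 0.041), Atp6v0b (-0.051 to 0.26) and Tfeb (-0.31 to 0.10). The cause of these changes was not tested. Counts were low for some members, with Tfeb at 24 to 119 counts per mouse.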
